A study of Apis mellifera with 138 samples.

Results

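This report describes 100 honey bee genes whose brain expression moved with the chaperone Hsp90 (heat shock protein 90) from bee to bee. They were chosen by correlation. In 67 brain libraries with a viral share of at most 0.5%, the mean of each colony and treatment group was taken off log2(CPM + 1) (CPM, a gene's count scaled to 1000000 bee gene counts), so that each bee was left with its deviation from its own group. A filter of more than 1 CPM in 32 or more of these brains left 9118 bee genes, of which 4318 had a higher Pearson r to Hsp90 than to egr (LOC726302, so named in the choice of the set and described in the study's gene table as myb-like protein Q), which served as a second reference point. The 100 with the highest r to Hsp90 were kept as members, after Hsp90 itself and 11 other chaperone or stress genes had been set aside by name. One of those 11, LOC411700, is described as heat shock protein 83, the name of Hsp90 in the fly, and reads shared between it and Hsp90 were not examined. The files hold 12332 bee genes in all.

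The bees were adult Apis mellifera workers from 3 colonies, R2, R3 and R42, and each colony's queen had been inseminated by a single drone. At 3 days of age, after a short fast and cold anesthesia on ice that all bees received, each bee was fed 1000 pmol of an antagomir, a stabilized antisense RNA against a microRNA, in 30% sucrose. One group received antag-305, directed against ame-miR-305-5p, and the other antag-missense, a control construct. All bees were then caged singly with sucrose solution and held in an incubator at the same temperature. Brain and abdominal fat body were taken from single bees 48 h after feeding, at 5 days of age. The brains compared here came from 12, 12 and 11 antag-305 bees and from 11, 11 and 10 antag-missense bees of R2, R3 and R42, and fat bodies from 12, 12 and 11 antag-305 bees and 9, 11 and 10 antag-missense bees. Each colony was also its own trial, so that a difference between colonies and a difference between trials cannot be told apart. The dose was oral, and the treatment was not directed to any tissue or cell type.

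Hsp90 is an abundant chaperone that helps kinases, receptors and other client proteins reach their folded state, and it works with co-chaperones that deliver clients or set the pace of its ATPase. Its gene is a classical target of heat shock factor, a transcription factor that raises many chaperone genes together when unfolded protein accumulates. Heat shock genes respond to temperature and other stresses in bees as in other animals.

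Library totals in the brain ran from 7817899 to 49150105 bee gene counts with antag-305 (median 15035226) and from 5825129 to 26301668 with antag-missense (median 13414596). No pair of brain libraries differed by as little as sampling noise would give (lowest chi-square per gene 5.18 among 2211 pairs). The 5 neuronal markers that matched a symbol (Syt1, NLG-4, nAChRa1, brp and Syx1A, of 10 listed) summed to 3770 to 4877 CPM in antag-305 brains and 3943 to 5022 CPM in antag-missense brains, so the labelled tissue showed its markers. None of the 5 glial markers matched. In whole tissue, fewer cells of a type and less RNA per cell cannot be told apart.

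Hsp90 itself varied widely among sisters. Its brain level was 1904, 4224 and 8273 CPM (lowest, median and highest) in antag-305 bees of R2, against 1778, 2313 and 3705 CPM in antag-missense bees. In R3 it was 4137, 5933 and 7481 CPM with antag-305, against 2188, 2602 and 3240 CPM with antag-missense. In R42 the values were 1039, 2553 and 5558 CPM with antag-305 and 1300, 2254 and 3322 CPM with antag-missense. The treatment groups did not overlap in R3 and overlapped in R2 and R42. The spread inside groups, which the rule used, was smallest in R3. The SD of the deviations was 0.61 log2 units in R2 and 0.59 in R42 but 0.22 in R3, so bees of R2 and R42 carried most of the variation on which the members were chosen.

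The members' r to Hsp90 ran between 0.35 and 0.88 with a median of 0.47, where the median over all tested genes was -0.03. These values chose the members and are a description. The other correlations in this paragraph come from the same brains and are descriptions too. There were 42 members above 0.5 and 9 above 0.7, and the 11 genes set aside lay between 0.54 and 0.85. The last members inside the list were LOC113218668 (r = 0.36), LOC409165 (0.35) and LOC551458 (0.35), and the first genes outside it were LOC552129, LOC100578780 and LOC410447, each at 0.35 or just under (0.345), so the list has no natural end. Toward egr the members split, with 39 of 100 below 0 and a range of -0.64 to 0.55, where the rule kept each below its own r to Hsp90. Among themselves the members had a median pairwise r of 0.28, against 0.02 over all pairs of tested genes. Genes chosen for a high r to Hsp90 also tend to correlate with each other, so this difference follows in part from the rule. Within single colonies the median member r was 0.59 in R2, 0.33 in R3 and 0.53 in R42, and 87 members were above 0 in all 3. In antag-305 brains alone it was 0.59, and in antag-missense brains alone 0.37. When the rule was applied to antag-missense brains alone, 40 of the 100 genes were chosen again, and without colony R2 it was 53.

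**Figure D1:**
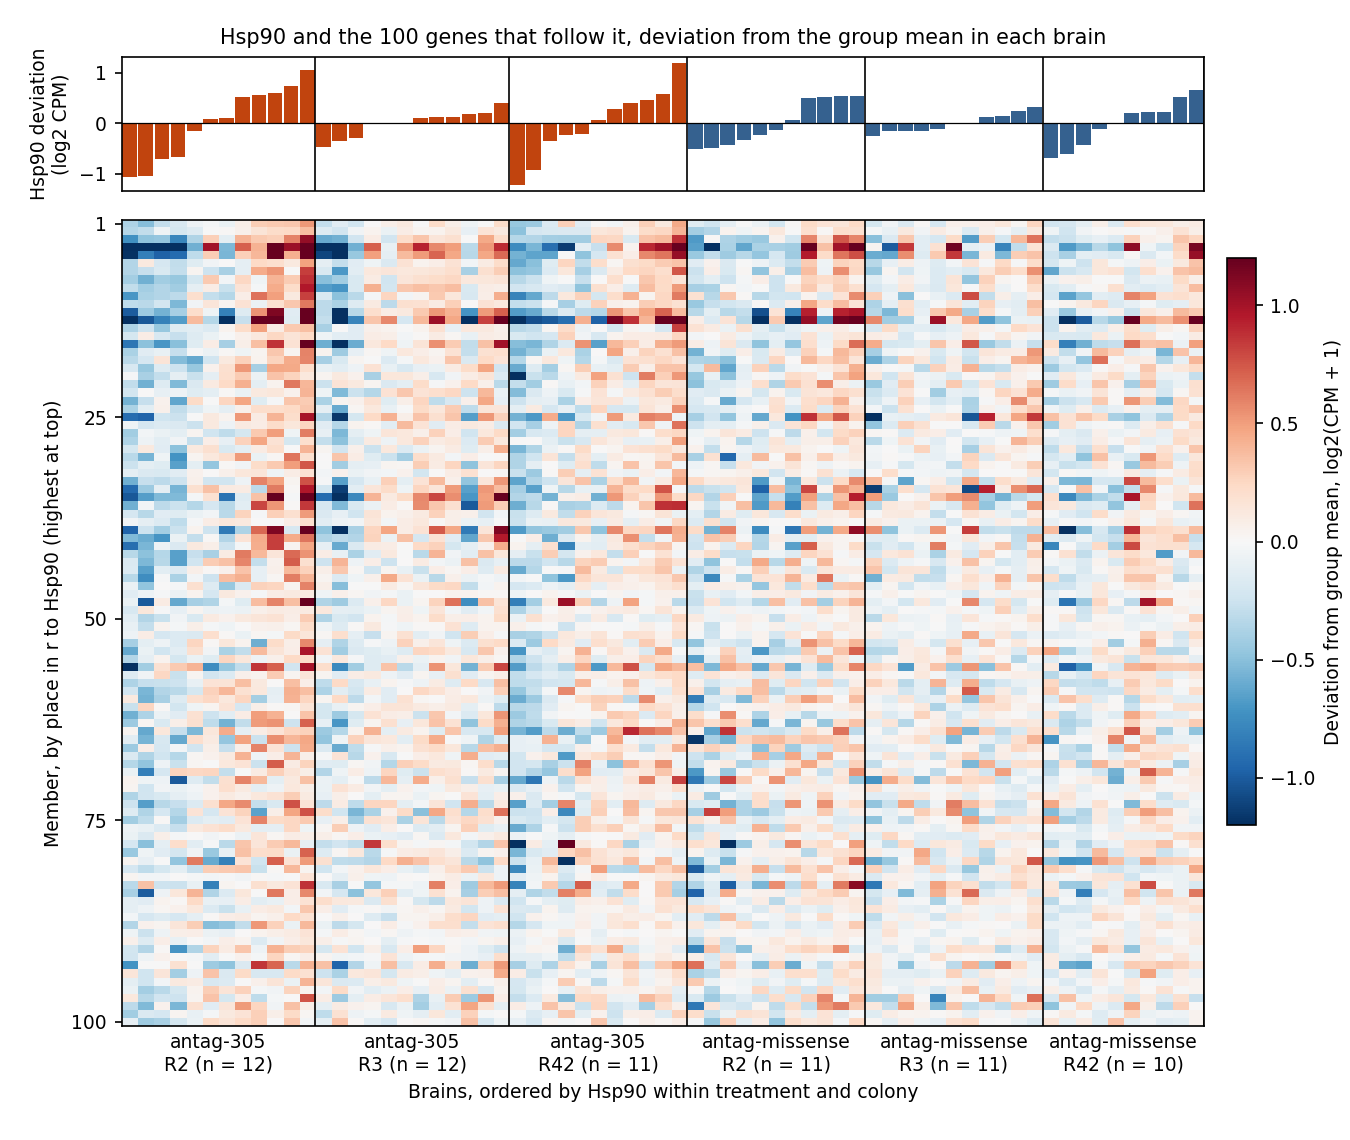
Deviation of Hsp90 (bars, top) and of the 100 members (rows, ordered by r to Hsp90) from the mean of their own treatment and colony group, in log2(CPM + 1), for 67 brains (columns) sorted by Hsp90 within each group, antag-305 on the left and antag-missense on the right. Blue gives way to red from left to right inside the groups of R2 and R42, where Hsp90 spread most, and less so inside R3, where the Hsp90 deviations stayed between -0.46 and 0.39.

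Of the members, 81 were protein coding and 19 were long non-coding RNAs, a share of 19% where lncRNAs made up 7.35% of the tested genes. Gene spans had a median of 4525 bases, against 4291 over tested genes, and the median level was 50.2 CPM, against 36.9 CPM. By position, 19 members lay on chromosome 2, which holds 6.90% of the tested genes. A description was at hand for 26 members, all of them genes that the study had listed as differentially expressed in these libraries, so what the described members have in common is not independent of the treatment. The other members are given by symbol alone.

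Many of the members were higher in the brains of bees fed antag-305. In the fit of colony and treatment (edgeR quasi-likelihood test, Benjamini-Hochberg adjustment over 9118 genes, FDR under 0.05), 50 members were higher in antag-305 brains and 1 was lower, where 5.47% of all tested genes were higher and 5.87% lower. The median log2 fold change was 0.20 over the members and 0.00 over all tested genes (-0.0044), and 93 members lay above 0, as did 48.9% of tested genes. The group means had been taken off before the members were chosen, so the difference of group means was not part of the rule. The choice was still not independent of the treatment, because Hsp90 deviations spread more in antag-305 brains. Their SD was 0.73, 0.25 and 0.69 in R2, R3 and R42, against 0.44, 0.18 and 0.46 in antag-missense brains. Hsp90 and its companions were also singled out with the treatment result known. All of the 18 members with the highest r were called higher, a cut that was set after the calls were seen. The calls fell on 36 of the first 50 members by r and on 15 of the last 50. Without colony R3 the count dropped to 3 members higher and 0 lower (LOC107966102, LOC107966103 and LOC408923), when 0.0768% of all tested genes were called higher, and 90 members still lay above 0 with a median of 0.12.

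The named co-chaperones of Hsp90 held places 1 (CHORD), 7 (FKBP59), 56 (Cdc37) and 63 (Aha1) in the order of r. LOC412067, on chromosome 4 (2831417 to 2833436 of the HAv3.1 genome), encodes the cysteine and histidine-rich domain-containing protein CHORD, an Hsp90 partner in flies and mammals, and had the highest r of any member, 0.88. It measured 37.2, 62.8 and 89.1 CPM (lowest, median, highest) in antag-305 brains, against 39.6, 49.0 and 58.7 CPM in antag-missense brains. The groups overlapped, with 29 of 35 antag-305 brains above the antag-missense median, and the log2 fold change was 0.40 (SE 0.060, FDR 5.74e-06). LOC412287 (chromosome 1, 6024805 to 6027394), the FK506-binding protein FKBP59, a prolyl isomerase of the kind that docks on Hsp90, measured 136, 217 and 375 CPM with antag-305, against 98.0, 153 and 223 CPM with antag-missense. It rose by 0.61 (SE 0.088, FDR 1.96e-06), with 32 of 35 antag-305 brains above the antag-missense median. LOC551720, the homolog of Aha1, which speeds the ATPase of Hsp90, rose less, by 0.33 (SE 0.082, FDR 0.0070), with 138, 207 and 333 CPM in antag-305 brains and 110, 180 and 220 CPM in antag-missense brains. Cdc37, which hands protein kinases to Hsp90, was not called (log2 fold change 0.16, SE 0.13, FDR 0.34), and its antag-305 brains spanned 70.6 to 401 CPM around the 92.0 to 275 CPM of antag-missense brains. Cdc37 was also the member with the most negative r to egr (-0.64). Cdc37, LOC727486, LOC550875, LOC414009, LOC102653599 and the genes named with the runs of neighbouring genes were picked out after their values had been seen.

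Other folding proteins rose with them. LOC727486, a BAG domain protein (starvin in the fly) of a family that releases nucleotide from Hsp70, measured 327, 762 and 2151 CPM in antag-305 brains, against 231, 496 and 947 CPM in antag-missense brains, a log2 fold change of 0.71 (SE 0.15, FDR 0.00061). LOC412708, calcyclin-binding protein, is a partner of ubiquitin ligases in mammals and was grouped by hand with the folding proteins. It rose by 0.33 (SE 0.095, FDR 0.021). Of the endoplasmic reticulum, endoplasmin LOC412150, the Hsp90 of that compartment, rose by 0.36 (SE 0.062, FDR 5.21e-05), with medians of 248 CPM in antag-305 brains and 208 CPM in antag-missense brains. Calreticulin LOC409165, a lectin chaperone there, rose by 0.16 (SE 0.039, FDR 0.0045). LOC409296, the gamma subunit of the chaperonin ring that folds actin and tubulin, rose by 0.12 (SE 0.033, FDR 0.011), with 30 of 35 antag-305 brains above the antag-missense median. Apart from Cdc37, the folding proteins could be recognised only by descriptions, which exist only for genes the study had called, so that these calls carry no information on folding genes as a group.

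The second member by r was a kinase. LOC412470 (r = 0.84, chromosome 16, 1106965 to 1123594), the MAP kinase-interacting kinase, Lk6 in the fly, phosphorylates the cap-binding factor of translation. Its levels were 648, 1084 and 1421 CPM in antag-305 brains, against 701, 947 and 1103 CPM in antag-missense brains, and it rose by 0.23 (SE 0.048, FDR 0.00058). LOC408923, subunit 4 of the general transcription factor TFIID, was among the members with the smallest p. It measured 57.1, 91.6 and 143 CPM with antag-305, against 48.8, 66.7 and 94.7 CPM with antag-missense, a log2 fold change of 0.52 (SE 0.064, FDR 1.19e-07). LOC550875, the transcriptional coactivator MBF1, rose by 0.17 (SE 0.040, FDR 0.0040). LOC414009, known as pasha in the fly and DGCR8 in mammals, which holds primary microRNA transcripts for cutting by Drosha, measured 13.3, 22.2 and 32.1 CPM with antag-305, against 9.10, 17.1 and 26.8 CPM with antag-missense, and rose by 0.37 (SE 0.080, FDR 0.0016).

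Other described members are given singly, since no list of metabolic genes was tested. LOC551143 (chromosome 10, 10285073 to 10289480), inositol-3-phosphate synthase, makes the inositol ring from glucose 6-phosphate. Its brain levels were 439, 809 and 1128 CPM with antag-305, against 463, 611 and 826 CPM with antag-missense, and it rose by 0.39 (SE 0.057, FDR 2.14e-06). Ip3k, a kinase that consumes the second messenger inositol trisphosphate, rose by 0.38 (SE 0.063, FDR 2.37e-05). LOC408867, trehalose-phosphate synthase, the enzyme behind the main blood sugar of insects, rose by 0.31 (SE 0.047, FDR 5.39e-06), adenylate kinase 5 (LOC100578112) by 0.38 (SE 0.059, FDR 5.85e-06) and aldose reductase (LOC551968) by 0.23 (SE 0.068, FDR 0.025). The ammonium transporter LOC552640 rose by 0.26 (SE 0.071, FDR 0.015).

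Several of the steepest members carry no description, or none that gives a role. LOC724367 measured 13.2, 73.5 and 448 CPM in antag-305 brains, against 13.4, 41.4 and 176 CPM in antag-missense brains, and had the largest log2 fold change of any member, 1.05 (SE 0.25, FDR 0.0040). The gain came with a long upper tail, since 22 of 35 antag-305 brains were above the antag-missense median. LOC412197 measured 72.8, 227 and 805 CPM, against 75.6, 110 and 303 CPM, and rose by 0.99 (SE 0.18, FDR 0.00014). LOC409664, described as erythroid differentiation-related factor 1, measured 51.8, 82.1 and 144 CPM with antag-305, against 38.6, 55.3 and 69.9 CPM with antag-missense, and rose by 0.65 (SE 0.082, FDR 1.19e-07). LOC100576381 rose by 0.63 (SE 0.092, FDR 2.14e-06), with 42.3, 71.0 and 153 CPM in antag-305 brains and 38.1, 51.9 and 69.02 CPM in antag-missense brains.

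The lncRNA LOC107966102 (r = 0.81, chromosome 2, 9967997 to 9971106) was the only one of the 10 highest members with every antag-305 brain above the antag-missense median, 35 of 35. Its levels were 335, 616 and 1242 CPM with antag-305, against 231, 331 and 664 CPM with antag-missense, and it rose by 0.90 (SE 0.11, FDR 1.19e-07). The lowest antag-305 brain was thus only just above that median, and the groups overlapped. The share of all tested genes with 35 of 35 was not counted. In all 10 of the 19 lncRNA members were called higher, where 3.88% of the 670 tested lncRNAs were. The lncRNA members ranged from 1.22 to 23973 CPM in the median brain. The highest of them, LOC102653599, was the most abundant bee gene in 66 of 67 brains.

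The member called lower was LOC413204, a scarce transcript at 0.561, 1.99 and 4.14 CPM in antag-305 brains and 0.687, 2.23 and 6.71 CPM in antag-missense brains (log2 fold change -0.50, SE 0.15, FDR 0.029). The groups overlapped widely. The next members by p among those below 0 were not called: LOC100577809 at -0.18, LOC102656199 at -0.10, LOC726841 at -0.04 and LOC408401 at -0.01 (FDR from 0.28 to 0.85). In total 49 members were not called in either direction.

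**Figure D2:**
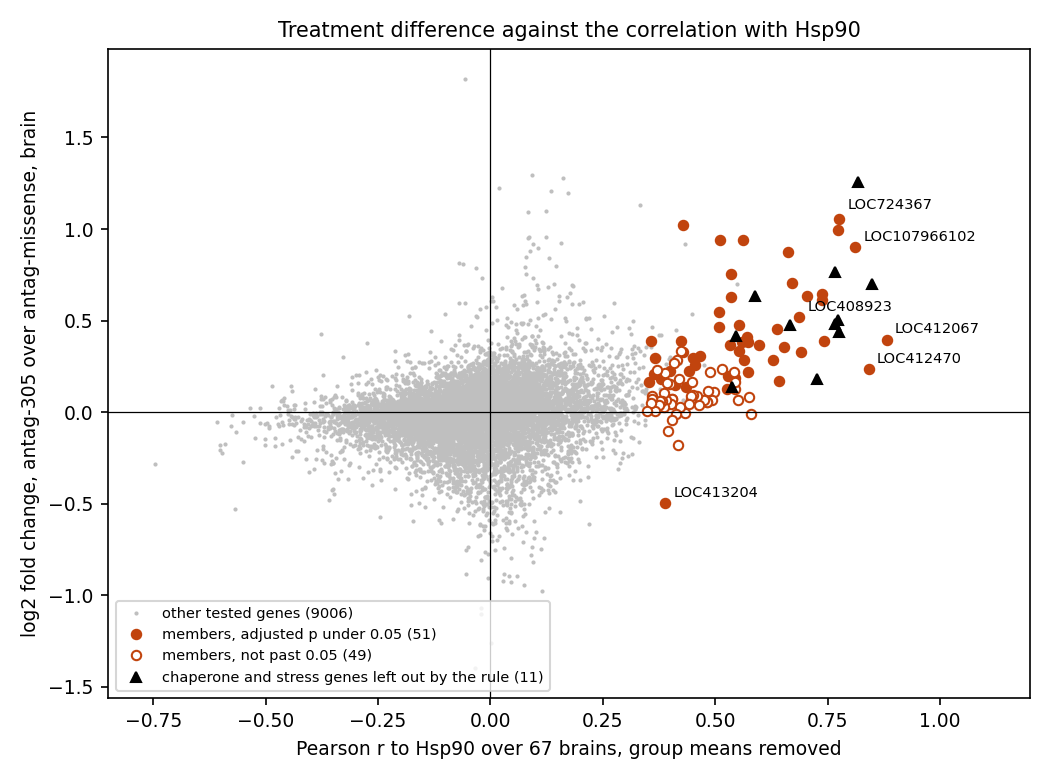
Log2 fold change of antag-305 over antag-missense in the brain (vertical) against Pearson r to Hsp90 over 67 brains with group means removed (horizontal), for 9006 other tested genes (grey), the members called at FDR under 0.05 (filled, 51) or not (open, 49), and the 11 genes set aside (triangles). The members lie mostly above 0, most steeply at high r, with LOC413204 as the filled point below 0.

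**Figure D3:**
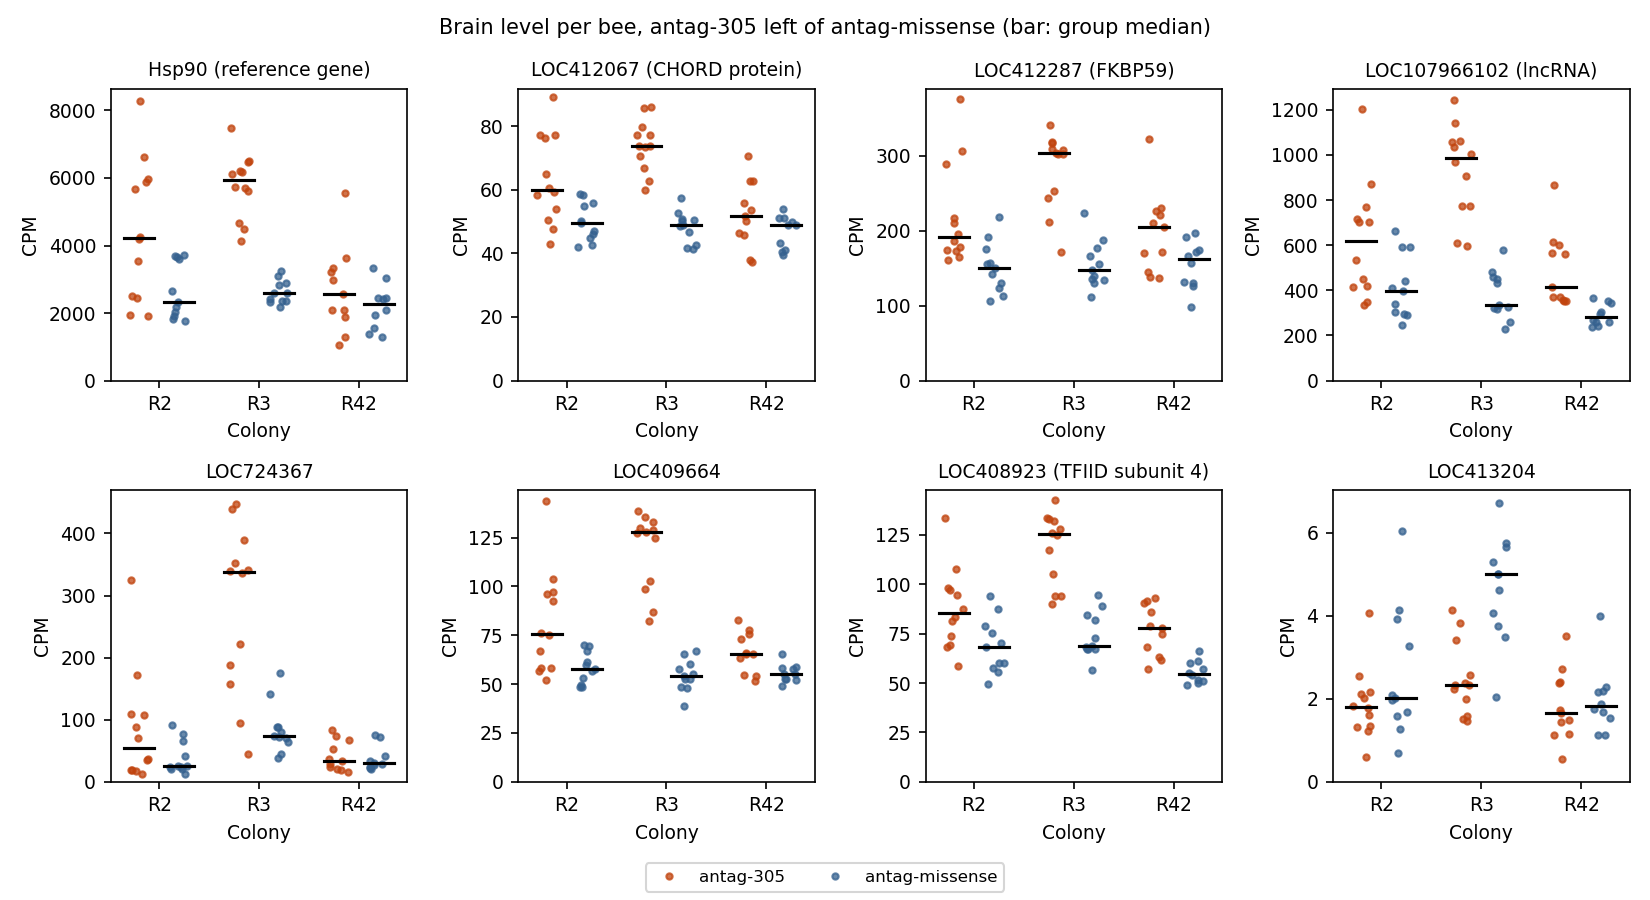
Brain level in CPM (vertical, from 0) of Hsp90 and 7 members in each bee by colony, antag-305 (orange) left of antag-missense (blue), with the group median as a bar. In R3 the antag-305 bees of Hsp90, LOC412067, LOC107966102 and LOC409664 all lie above the antag-missense bees, and in R42 the groups overlap for every gene drawn.

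The fold changes were not of one size in the 3 colonies. The median log2 fold change of the members was 0.15 in R2, 0.29 in R3 and 0.08 in R42, against -0.01, -0.01 and 0.00 (-0.00081) over all tested genes. Of the members, 69 had their largest fold change in R3, as did 32.5% of tested genes. Fitted alone, R3 gave 48 members higher (3.21% of tested genes were), R2 gave 1 (0.0439%) and R42 gave 1 (0.0658%). A fold change above 0 in all 3 colonies was found for 59 members and for 26.9% of tested genes. In R3, 5 members had every antag-305 brain above every antag-missense brain (0.175% of tested genes had), namely LOC412067, LOC107966102, LOC409664, LOC100576381 and LOC102655815, the last chosen for naming after its values were seen. In R2 and R42 there were 0 such members (0% and 0.0219% of tested genes).

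A test of the difference itself, the interaction of treatment and colony, called 4 members, where 0.428% of tested genes were called. LOC409664 (interaction FDR 0.0013) measured 82.1, 128 and 138 CPM in antag-305 brains of R3, against 38.6, 54.1 and 67.1 CPM in antag-missense brains, and 51.8, 65.4 and 82.5 CPM against 49.2, 55.3 and 65.4 CPM in R42. Its log2 fold change was 0.50 (SE 0.14) in R2, 1.16 (SE 0.099) in R3 and 0.24 (SE 0.079) in R42. LOC100576381 (interaction FDR 0.0031) had 0.50 (SE 0.15), 1.18 (SE 0.13) and 0.17 (SE 0.11) in the same order. LOC408867, trehalose-phosphate synthase (interaction FDR 0.0031), had 0.30 (SE 0.069), 0.56 (SE 0.073) and 0.03 (SE 0.062), and Ip3k (interaction FDR 0.016) had 0.43 (SE 0.078), 0.67 (SE 0.11) and 0.01 (SE 0.081). In these 4 genes R42 had the smallest fold change and R3 the largest. For Hsp90 the interaction was not called (FDR 0.52), although its fold changes were 0.76 (SE 0.24), 1.18 (SE 0.097) and 0.29 (SE 0.24) in R2, R3 and R42.

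Colonies also differed in level. The colony term was called for 78 members, where it was called for 33.6% of tested genes. It was fitted over both treatments without an interaction, so an antag-305 difference that is larger in one colony can add to it. Colony was not tested in antag-missense brains alone. Of those 78, 66 had their highest mean in R3, 11 in R2 and 1 in R42, while the called tested genes had their highest mean in R3 in 28.4% of cases and in R2 in 39.6%. Within antag-missense brains alone, which leave out the antag-305 difference, 50 of the 78 were highest in R3, 26 in R2 and 2 in R42, where 28.1% of the called tested genes were highest in R3, 42.7% in R2 and 29.3% in R42. Hsp90 was also highest there in R3, by a small margin (median 2602 CPM, against 2313 CPM in R2 and 2254 CPM in R42).

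On chromosome 2, members sat side by side in runs. The first run holds 6 genes within 17752 bases (4820592 to 4838343): LOC410087, LOC724274, LOC724367, LOC724405, LOC724449 and LOC724488, of which all but LOC724405 were members. Among the 5 members pairwise r lay between 0.72 and 0.94, and their r to Hsp90 between 0.51 and 0.78. LOC724488 had the widest range of the run's members, 107 to 6312 CPM (median 669 CPM) in antag-305 brains and 86.6 to 1787 CPM (median 502 CPM) in antag-missense brains. Of the 5, 4 were called higher, by 0.45 (LOC724274) to 1.05 (LOC724367), and LOC724449 was not (0.24, SE 0.16, FDR 0.30). LOC724405, in the middle of the run, had an r of 0.08 to Hsp90 and of 0.81 to egr, and was not called (0.24, SE 0.12, FDR 0.14). The genes LOC410087 and LOC724274 overlap on opposite strands, and since the strand setting of the counting is not given in the sources used here, their counts may share reads.

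The second run holds 6 genes within 30577 bases (9940530 to 9971106), 4 of them members: LOC102655100, LOC107966103, LOC113218601 and LOC107966102. The last 3 are lncRNAs on the minus strand. The neighbours LOC113218600 and LOC408699 had r of 0.21 and 0.31 and fell outside the list. All 4 members were called higher, by 0.29 (LOC102655100, FDR 0.045), 0.48 (LOC107966103, FDR 1.37e-07), 0.39 (LOC113218601, FDR 0.00012) and 0.90 (LOC107966102, FDR 1.19e-07). They are among the abundant brain transcripts, with median levels between 431 and 3963 CPM. LOC107966103 and LOC113218601 overlap LOC408699 on the other strand, so reads of that gene may be shared. A pair of lncRNAs on chromosome 12, LOC107965335 and LOC107965336 (6816905 to 6820124), tracked each other at r = 0.89 and rose by 0.75 and 0.94, at medians of 6.29 and 4.13 CPM. On chromosome 4, LOC551599, an ADAM 17-like protease that sheds membrane proteins, starts next to LOC412067 on the other strand and had an r of 0.57 to it and a log2 fold change of 0.19 (SE 0.040, FDR 0.00095). Of all members 39 overlap another gene's span, as do 39.1% of tested genes, 35 of them on the opposite strand.

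The fat body gave a separate look at the same relation, since the rule did not use it. Of the members, 89 passed the filter there (more than 1 CPM in at least 30 of 65 libraries). Their median r to Hsp90 in fat bodies was 0.07, close to the 0.03 of all 8844 tested genes, so most of the list did not follow Hsp90 in the fat body. Above r = 0.3 there were 16 of 89 members (18.0%), against 1.15% of tested genes (102 genes). Proteins of folding, grouped by hand after their values were seen, made up 8 of those 16. Calcyclin-binding protein, a partner of ubiquitin ligases in mammals, was counted with them. FKBP59 (LOC412287) had a fat body r of 0.65, Aha1 (LOC551720) 0.53, CHORD (LOC412067) 0.52, endoplasmin (LOC412150) 0.52, calcyclin-binding protein (LOC412708) 0.50, Cdc37 0.47, the chaperonin subunit (LOC409296) 0.45 and the BAG protein (LOC727486) 0.40, with calreticulin (LOC409165) at 0.27. Among the other 80 members 8 were above 0.3 and the median was 0.05. Those 80 include members without a description, whose part in folding could not be judged. Of the 11 genes set aside, 9 were above 0.3. Without the 2 most extreme fat bodies, r fell below 0.3 for LOC724274 (0.28), LOC414009 (0.28), LOC107966102 (0.13), LOC550875 (0.29) and LOC102655100 (0.22). It rose above 0.3 for LOC410169 (0.35) and LOC102656258 (0.32), both named after their values were seen. Genes of one library share its depth and handling, and these correlations are descriptions.

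Some of the strongest brain followers had fat body values near or below 0. The kinase LOC412470 had r = 0.84 in brains and -0.17 in fat bodies, LOC724367 0.78 and 0.00 (-0.00091), LOC412197 0.77 and -0.12, and TFIID subunit 4 (LOC408923) 0.69 and 0.05. The lowest fat body values were those of LOC413103 (-0.37), LOC100576754 (-0.23) and LOC411030 (-0.22). No relation was detected between Hsp90 in a bee's brain and Hsp90 in the fat body of the same bee (65 bees, Pearson r = 0.07, permutation p = 0.64, Spearman rho = -0.01, permutation p = 0.96, each two-sided within groups, adjusted p = 0.81 and 0.96 over 12 relations, and r = -0.12 without the 2 fat bodies farthest from the median).

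**Figure D4:**
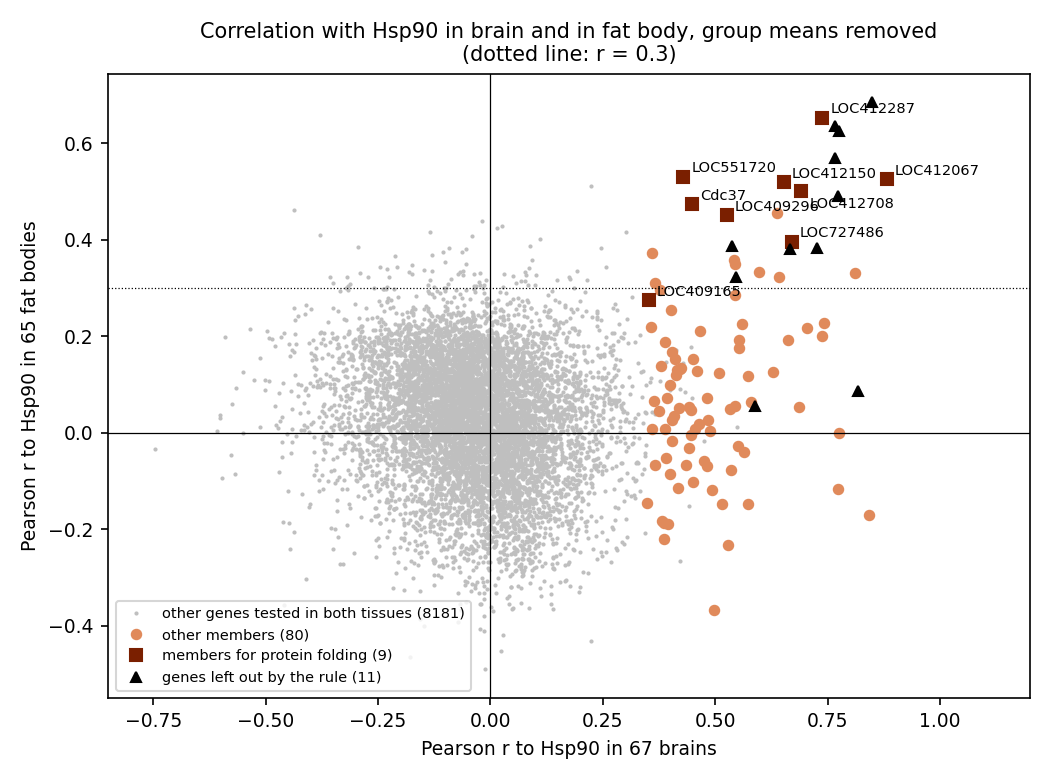
Pearson r to Hsp90 in 65 fat bodies (vertical) against that in 67 brains (horizontal), group means removed, for 8181 other genes tested in both tissues (grey), 9 members grouped by hand under protein folding, calcyclin-binding protein among them (squares), 80 other members (circles) and 11 genes set aside (triangles). The squares lie between 0.27 and 0.65 on the fat body axis, while the circles spread around a median of 0.05. The circles include members without a description, whose part in folding could not be judged.

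In the fat body no member passed the same test. The edgeR fit called 0 of 89, where 0.0339% of 8844 tested genes were called higher and 0.0339% lower, and DESeq2 also called 0. At an unadjusted p under 0.05 there were 13 members, and 9.01% of tested genes. The members' median log2 fold change was 0.06 and the smallest FDR 0.23. Hsp90 had 590, 1357 and 6884 CPM in antag-305 fat bodies, against 802, 1632 and 2869 CPM in antag-missense fat bodies (log2 fold change -0.03, SE 0.14, FDR 0.94). Without colony R42 there were 3 members called lower with antag-305, where 0.452% of tested genes were, LOC107966102 (-0.77, FDR 3.78e-05), LOC411069 (-0.23, FDR 0.0086) and LOC102653793 (-0.34, FDR 0.00043, named after its value was seen).

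The test of treatment by tissue, with each of 65 bees as its own block, called 8 of 89 members, all with a higher fold change in brain, where 0.254% of 8282 genes tested in both tissues were called in that direction and 0.0966% in the other. LOC107966102 stood first: its log2 fold change was 0.90 (SE 0.11) in brain and -0.16 (SE 0.16) in fat body, an interaction of 1.10 (SE 0.18, FDR 0.00026). FKBP59 (LOC412287) had 0.61 (SE 0.088) in brain and -0.15 (SE 0.10) in fat body, where it measured 175, 288 and 511 CPM with antag-305, against 147, 326 and 701 CPM with antag-missense (interaction 0.76, SE 0.16, FDR 0.014). LOC725515 had 0.29 and -0.17 (interaction 0.50, SE 0.099, FDR 0.0092), Aha1 (LOC551720) 0.33 and -0.13 (0.47, SE 0.11, FDR 0.026), and LOC411069 0.09 and -0.16 (0.27, SE 0.060, FDR 0.026). The other calls were LOC100576381 (FDR 0.036), LOC409664 (FDR 0.044) and pasha (LOC414009, FDR 0.044). For Hsp90 the interaction was 0.82 (SE 0.27, FDR 0.17) and was not called.

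The members leaned toward higher levels in brain, but held genes of both directions. Compared within bees, 51 of 89 were higher in brain (46.1% of 8282 genes were), 29 were lower (47.5% were) and 9 were not called, with a median log2 difference of 0.39 against -0.03. Hsp90 measured 1039, 2895 and 8273 CPM over 67 brains, against 590, 1586 and 6884 CPM over 65 fat bodies (log2 difference 1.05, SE 0.14, FDR 5.26e-10). Of the 89 members tested in both tissues, those highest in brain were LOC102655100 with 1741, 3084 and 5831 CPM in brains, against 70.5, 149 and 426 CPM in fat bodies (log2 difference 4.27), LOC107966103 (4.15) and adenylate kinase 5 (LOC100578112, 4.04). Those lowest in brain were LOC411916 with 0.292, 1.72 and 3.64 CPM in brains, against 34.1, 76.9 and 133 CPM in fat bodies (-5.47), LOC552028 (-5.23) and aldose reductase (LOC551968, -3.65). These 6 were picked for their large differences, and for each the ranges in brain and fat body did not overlap. The share of all tested genes without such overlap was not counted. Among the 11 members that did not pass the fat body filter, LOC102654860 had a median of 51.0 CPM in brains and 0.0837 CPM in fat bodies, and LOC102655815 was at 0 in every fat body, both named after their values were seen. Co-chaperones fell on both sides: CHORD (LOC412067) was lower in brain by 0.75 on the log2 scale and FKBP59 (LOC412287) by 0.73, and Cdc37 was higher by 0.84.

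Measures of the library bore little relation to Hsp90 in brains, with 12 relations tested by permutation within groups (100000 resamples, two-sided). Library size had r = 0.05, the mitochondrial share -0.08, the viral share -0.11, the number of genes detected 0.20 and a tilt of expression with gene span -0.05, and the smallest adjusted p among them was 0.26. Markers of neighbouring tissues had r = 0.16 (photoreceptors, 3 of 4 matched), 0.15 (hypopharyngeal gland, 7 of 7), 0.10 (fat body, 4 of 5) and -0.02 (muscle, 7 of 9), with adjusted p from 0.53 to 0.91. Their summed levels spanned 30.5 to 3008 CPM with antag-305 and 22.6 to 881 CPM with antag-missense for photoreceptors, 84.1 to 1406 CPM and 82.5 to 2214 CPM for hypopharyngeal gland, 1.02 to 88.5 CPM and 1.03 to 17.2 CPM for fat body, and 11.3 to 189 CPM and 13.3 to 47.8 CPM for muscle. One measure moved the other way: the summed neuronal markers fell as Hsp90 rose, with r = -0.33 (permutation p = 0.0056, adjusted 0.033) and Spearman rho = -0.27 (permutation p = 0.034, adjusted 0.20). It was -0.52 in R2, -0.02 in R3 and -0.27 in R42, and -0.26 without the 2 most extreme brains. Over the members the median r to this sum was -0.13, and its part in the result was not tested. The share of counts taken by the most abundant gene followed Hsp90 at r = 0.58 and rho = 0.57, and at r = 0.54 without the 2 most extreme brains. In 66 of 67 brains that gene was the member LOC102653599, which was chosen by its r to Hsp90 in these same brains. The relation was thus largely fixed by the choice, so its p, though counted among the 12, is not given.

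The lists of gene families were matched on descriptions and so cover only genes the study had called, so their counts describe those genes alone. Of 26 described chaperones, 10 were set aside by the rule and 3 were members, and the other 13 had a median r of 0.05 to Hsp90 (range -0.29 to 0.27), below the 0.347 of the last member. Over the 26, 19 were called higher with antag-305 and 7 lower. Of 3 described genes for folding and transport in the endoplasmic reticulum, 2 were members. The lists for the proteasome (11 genes), ubiquitin (22), protein synthesis (8), cytosolic ribosome (17), mitochondrial respiration (23), redox (2), transcription factors (28), splicing (8) and cytoskeleton (13) held 0 members by word match, and their median r to Hsp90 ran from -0.04 to 0.05. The words used missed members of related function, such as suppressor of hairless (LOC413870, r = 0.44), a DNA-binding transcription factor named after its value was seen, and TFIID subunit 4 (LOC408923). Synapse and channel genes (37) held 1, the ammonium transporter LOC552640.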

How the data were processed

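The authors sequenced stranded mRNA libraries (Kapa Hyper Stranded kit) of single brains and fat bodies, aligned the reads to HAv3.1 with STAR 2.7.6a and counted them per gene with featureCounts of Subread 2.0.0. The deposited values are raw counts per gene, with 5 virus genomes among the rows, which were left out of the library sizes. The strand setting is not given in the sources used here. Of 138 libraries, 6 with a viral share above 0.5%, all antag-missense, were left out, which kept the same 132 libraries as the study. The study's methods state a lower threshold than this, although a brain with a viral share of 0.37% is not among the libraries it lists as removed.

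Members were chosen on log2(CPM + 1) with a pseudocount of 1, without further scaling. Treatment, colony and tissue were tested in edgeR 4.0.16 (R 4.3.3) with the quasi-likelihood test, TMM scaling and Benjamini-Hochberg adjustment over all genes tested in a fit (FDR under 0.05). Colony was a term of the brain and fat body fits, as it was in the study's table of differentially expressed genes. The fit recovered 175 of 200 genes changed by 0.5 log2 units in simulated brain counts of 9118 genes, with 183 called. DESeq2 1.42.0 served as an alternative. Correlations and permutations (100000) were computed in Python 3.11.15 with numpy 2.4.6, scipy 1.17.1 and pandas 2.3.3.

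Members and lists were chosen with earlier results of these data known. Members named in the text were the 10 with the highest r, the 5 with the smallest p in each direction in the brain, up to 2 per gene list, the 3 on either side of the last place, the 3 highest and lowest by fat body r and by tissue difference, and up to 5 for each interaction; others are named as chosen after their values were seen. Symbols matched 12331 of 12332 bee genes. Descriptions came from the study's table of differentially expressed genes, whose values were not used. Promoter motifs were not analysed here.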

Additional observations from a re-analysis of the deposited data

Results flagged for a closer look

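Single bees stood apart from their group in 5 of 45 combinations of gene and group examined. About 1 in 20 would be flagged if values were normal and independent, which CPM values and genes of the same bee need not be. LOC412197 reached 206 CPM in 1 of the 10 antag-missense brains from R42, against 116 CPM in the next highest, and LOC413204 reached 3.98 CPM in another brain of that group, against 2.29 CPM in the next. In fat bodies, 1 antag-missense bee of R2 was highest for both FKBP59 (LOC412287, 701 CPM, next 454 CPM) and CHORD (LOC412067, 160 CPM, next 101 CPM). FKBP59 also stood out in 1 antag-missense fat body of R42, at 681 CPM, against 444 CPM in the next.

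The antag-305 difference varied between colonies for LOC409664 (FDR 0.0013), LOC100576381 (FDR 0.0031), LOC408867 (FDR 0.0031) and Ip3k (FDR 0.016) by the edgeR interaction test, with the largest fold change in R3 each time. Between brain and fat body it differed for LOC107966102 (FDR 0.00026), LOC725515 (FDR 0.0092), LOC412287 (FDR 0.014), LOC551720 (FDR 0.026), LOC411069 (FDR 0.026), LOC100576381 (FDR 0.036), LOC409664 (FDR 0.044) and LOC414009 (FDR 0.044), each with the higher fold change in brain. No explanation of these differences was tested.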

How the results depend on the processing

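Of the 100 members, 62 were chosen again when group means were not removed, 53 without colony R2 and 40 from antag-missense brains alone, and 74 to 100 under the other alternatives. Without colony R3, 3 members were higher and 0 lower in antag-305 brains, when 10 genes in all were called. The members higher were 47 without R2 and 45 without R42, and the cause of the fall without R3 was not tested. The other alternatives gave 42 to 53 higher and 1 lower, and all 51 main calls kept their sign in each. Numbers of bees do not pair the samples: over 28 pairs in the brain, same-numbered bees had correlations of -0.64 to 0.57, with 10 above 0.1. With that number as a replicate block, 42 members were higher and 1 lower, and the same bees without the block gave 53 and 1. In the fat body, 3 members were lower without colony R42 (0.452% of tested genes). DESeq2's likelihood ratio test called 7 members for the colony interaction (0.647% of tested genes), and 18 were called higher for the tissue interaction without the bee as a block (0.495%). The members' median fat body r lay between 0.046 and 0.14. Members near 0 changed sign: LOC726841 was 0.030 without R42, LOC408401 0.0069 without R42 and LOC102656199 0.048 without R3. LOC551458 (0.0089) was -0.012 without further scaling, -0.0055 with the replicate block, -0.0024 on the same bees without it, -0.058 without R2, -0.012 without R3, -0.016 with length offsets and -0.0057 without the brain of highest viral share. The last alternative, that on the bees of the block and those leaving out the extreme bees were chosen after seeing the data. The lowest members, at 1 or 2 CPM, are the least precisely measured.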

Other observations

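At the opposite end of the ranking, 20 genes had an r below -0.5 to Hsp90 in brains. Of these, 8 were called lower with antag-305, 0 higher and 12 neither, where 5.87% of tested genes were lower. They were looked up after the values were seen, and r is a description. LOC552303, the RNA-binding protein cabeza, had the lowest value, -0.75, with -0.92 in R2, -0.45 in R3 and -0.66 in R42, and it fell with antag-305 (log2 fold change -0.28, SE 0.052, FDR 0.00014 in the edgeR fit). LOC408967, the next by r (-0.61), was not called (-0.06, SE 0.022, FDR 0.086). LOC408936, the RNA-binding protein squid, had r = -0.60 and a log2 fold change of -0.18 (SE 0.045, FDR 0.0060), and LOC413551, a mitochondrial coenzyme A transporter, -0.60 and -0.22 (SE 0.047, FDR 0.0010).

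The 2 brains left out for their viral share, both antag-missense, had Hsp90 levels inside the range of the kept bees of their group. The R3 brain (viral share 47.7%) had 2574 CPM of Hsp90, with 6 members above and 12 below all 11 kept brains, against 10.3% and 6.15% of tested genes. The R42 brain (23.7%) had 1653 CPM, with 10 members above and 5 below all 10 kept brains, against 9.02% and 6.12%.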
